A study of Mus musculus with 24 samples.

Results

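The genes described here are 32 genes of cholesterol synthesis and sterol regulation, taken by symbol from a given list, and each had 1 row among the 54752 gene IDs of the count tables. RNA was sequenced from the gastrocnemius, a calf muscle made mostly of fast fibres, in 24 mouse libraries that form 8 groups of 3 by sex, genotype and treatment. Both genotypes carried floxed alleles of Numb and Numbl, written Numb(f/f)/NumbL(f/f). Flox mice had these alleles alone, and transgene mice also carried HSA-MCM, a Cre that tamoxifen switches on and that the human skeletal actin promoter limits to muscle fibres. Mice of each sex and genotype received vehicle or tamoxifen, so flox mice show the drug without the recombinase. The labels give no dose, timing or age and do not say that each library is a separate animal, so the spread behind each p-value is that of libraries and may be technical. Transgene females, flox females and males lie in 3 separate tables.

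Cells build cholesterol from acetyl-CoA through mevalonate, isoprenoid diphosphates, squalene and lanosterol. When membrane sterol is low, Scap escorts the sterol regulatory element binding proteins, encoded by Srebf1 and Srebf2, out of the endoplasmic reticulum, and Insig1 and Insig2 hold them back when sterol is high. Liver X receptors, encoded by Nr1h2 and Nr1h3, sense oxysterols and raise the efflux pumps Abca1 and Abcg1. Tamoxifen is known to bind the sterol isomerase Ebp and the reductase Dhcr7, so the tamoxifen arm given to flox mice bears on these genes.

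Libraries held 21516819 to 43014516 counts, and the 7 muscle fibre markers summed to 116770 to 229620 CPM in each, where CPM are counts scaled to library size with trimmed mean of M values (TMM) over all 24 libraries. Esr1, whose ligand-binding domain is part of HSA-MCM, ranged from 398.7 to 1951 CPM with the transgene (12 libraries) and from 22.8 to 42.1 without it. The labels of 3 transgene male libraries disagree, with vehicle in the title but tamoxifen in another field, and the title was used. Flrt1, a membrane protein gene, was chosen with earlier results of these data known, so it cannot decide between the labels. Flrt1 lay at 3.26 to 3.68 CPM in those 3 libraries. The other 9 vehicle libraries lay lower, at 1.02 to 2.79, and the 12 tamoxifen libraries higher, at 8.56 to 279.8. Numb counts cover the whole gene, and the labels do not say which exons are floxed: Numb fell by 0.19 ± 0.04 (log2, SE) after tamoxifen over the 4 combinations of sex and genotype (adjusted p = 0.00761). Numbl was 0.42 ± 0.08 higher (adjusted p = 0.00261), and neither passed in a single combination. Both changes are means that include flox mice, which lack the Cre, so they do not check the knockout. Replicate 3 of the flox vehicle males stood apart with 249.8 CPM of the heat shock gene Hspa1a, against 1.14 to 10.7 in the other libraries, and the calls in flox males are given below with and without it.

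Promoters of the members were read as the 250 bases before each RefSeq start (GRCm38.p6), which the table held for 26 of the 32 genes. The CCAAT box, searched as CCAAT on both strands, lay in 21 of the 26, against 37.5% of all genes in the table. The E-box CACGTG, whose reversed complement is itself, lay in 6 of the 26 (Hsd17b7, Sc5d, Dhcr7, Scap, Insig1 and Abca1), against 6.86% of all genes. TCACNCCAC, the core of the classical sterol regulatory element, lay on either strand in Hmgcs1 alone among the 26, against 1.23% of all genes. The direct repeat with 4 spacer bases that liver X receptors bind was searched in exact consensus letters only. In those letters it lay in 0 of the 26, against 0.015% of all genes. A match that rare cannot show whether members, Srebf1 among them, carry variant repeats, which were not searched. The sequences below are shown because Srebf1 and Sc5d changed with tamoxifen and Hmgcs1 holds the sterol element; matches are in capitals, on whichever strand they lie. They run 5′ to 3′ in the direction of transcription. Srebf1 has 3 starts in the table on the minus strand, start 1 at chr11:60222582-60222831, start 2 at chr11:60220628-60220877 and start 3 at chr11:60210472-60210721. Sc5d is chr9:42264301-42264550 on the minus strand, and Hmgcs1 is chr13:119690101-119690350 on the plus strand.
Srebf1 start 1: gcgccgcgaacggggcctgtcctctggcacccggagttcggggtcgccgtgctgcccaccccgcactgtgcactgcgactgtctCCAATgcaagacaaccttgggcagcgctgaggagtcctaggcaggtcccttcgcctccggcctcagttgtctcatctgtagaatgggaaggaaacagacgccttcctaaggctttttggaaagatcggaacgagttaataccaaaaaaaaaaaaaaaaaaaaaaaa
Srebf1 start 2: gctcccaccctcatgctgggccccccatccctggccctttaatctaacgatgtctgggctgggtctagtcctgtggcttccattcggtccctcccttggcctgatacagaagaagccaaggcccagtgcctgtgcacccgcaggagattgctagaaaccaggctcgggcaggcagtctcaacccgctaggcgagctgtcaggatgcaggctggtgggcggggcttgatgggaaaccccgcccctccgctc
Srebf1 start 3: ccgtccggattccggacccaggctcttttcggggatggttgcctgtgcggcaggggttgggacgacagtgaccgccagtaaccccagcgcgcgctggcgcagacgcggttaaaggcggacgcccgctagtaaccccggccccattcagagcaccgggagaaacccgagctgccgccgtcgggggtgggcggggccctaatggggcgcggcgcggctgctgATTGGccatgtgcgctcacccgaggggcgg
Sc5d: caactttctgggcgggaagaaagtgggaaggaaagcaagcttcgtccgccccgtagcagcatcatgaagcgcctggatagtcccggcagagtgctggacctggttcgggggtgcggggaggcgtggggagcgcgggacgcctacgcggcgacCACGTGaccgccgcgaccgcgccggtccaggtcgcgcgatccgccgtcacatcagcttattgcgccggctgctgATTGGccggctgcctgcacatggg
Hmgcs1: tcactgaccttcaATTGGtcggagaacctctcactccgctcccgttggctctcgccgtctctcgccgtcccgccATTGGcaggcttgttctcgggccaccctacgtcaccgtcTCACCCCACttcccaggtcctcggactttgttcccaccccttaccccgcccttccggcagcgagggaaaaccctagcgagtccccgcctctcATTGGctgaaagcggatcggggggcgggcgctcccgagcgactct
Of the 4 motifs in the exact letters searched, Srebf1 start 1 held a CCAAT box 166 to 162 bases before it. Start 2 held none, and start 3 a CCAAT box 30 to 26 bases before it. Variant sites in these stretches were not searched. Sc5d held an E-box 98 to 93 bases before its start and a CCAAT box 24 to 20 bases before it. In Hmgcs1 the sterol element lay 137 to 129 bases before the start, among 3 CCAAT boxes that began 237, 176 and 45 bases before it.

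Levels per exon length spanned a wide range. The length is that of all annotated exons of a gene, merged over its transcripts, whether or not muscle uses them. It can exceed the length of the transcript present, as for the 5.44 kb of Npc2 or the 10.8 kb of Lss, and then lowers the level. The order below thus depends on annotation as well as on RNA. Insig2, which retains the Scap complex, stood highest at 15.6 CPM per kb of exon (mean of 24 libraries; SD within groups 0.859), next to Fdft1, squalene synthase, at 14.7. Fdft1 shares 26.5% of its 50-base words with other genes, chiefly Ctsb, whose exons cover 18.3% of its exon bases on the other strand, so reads may be split between them. Nr1h2 followed at 12.5, then Srebf1 at 6.86, Hmgcs1 (the cytosolic synthase that makes HMG-CoA) at 6.29 and Nr1h3 at 5.87. At the low end lay Sqle, squalene epoxidase, at 0.345, Soat1, which esterifies cholesterol, at 0.213 and Abcg1 at 0.211. Of the 31 pairs of neighbours in this order, 9 were farther apart than the larger of their SDs within groups, among them Fdft1 above Nr1h2 and Nr1h2 above Srebf1, while Insig2 and Fdft1, Srebf1 and Hmgcs1, and Soat1 and Abcg1 did not.

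**Figure D1:**
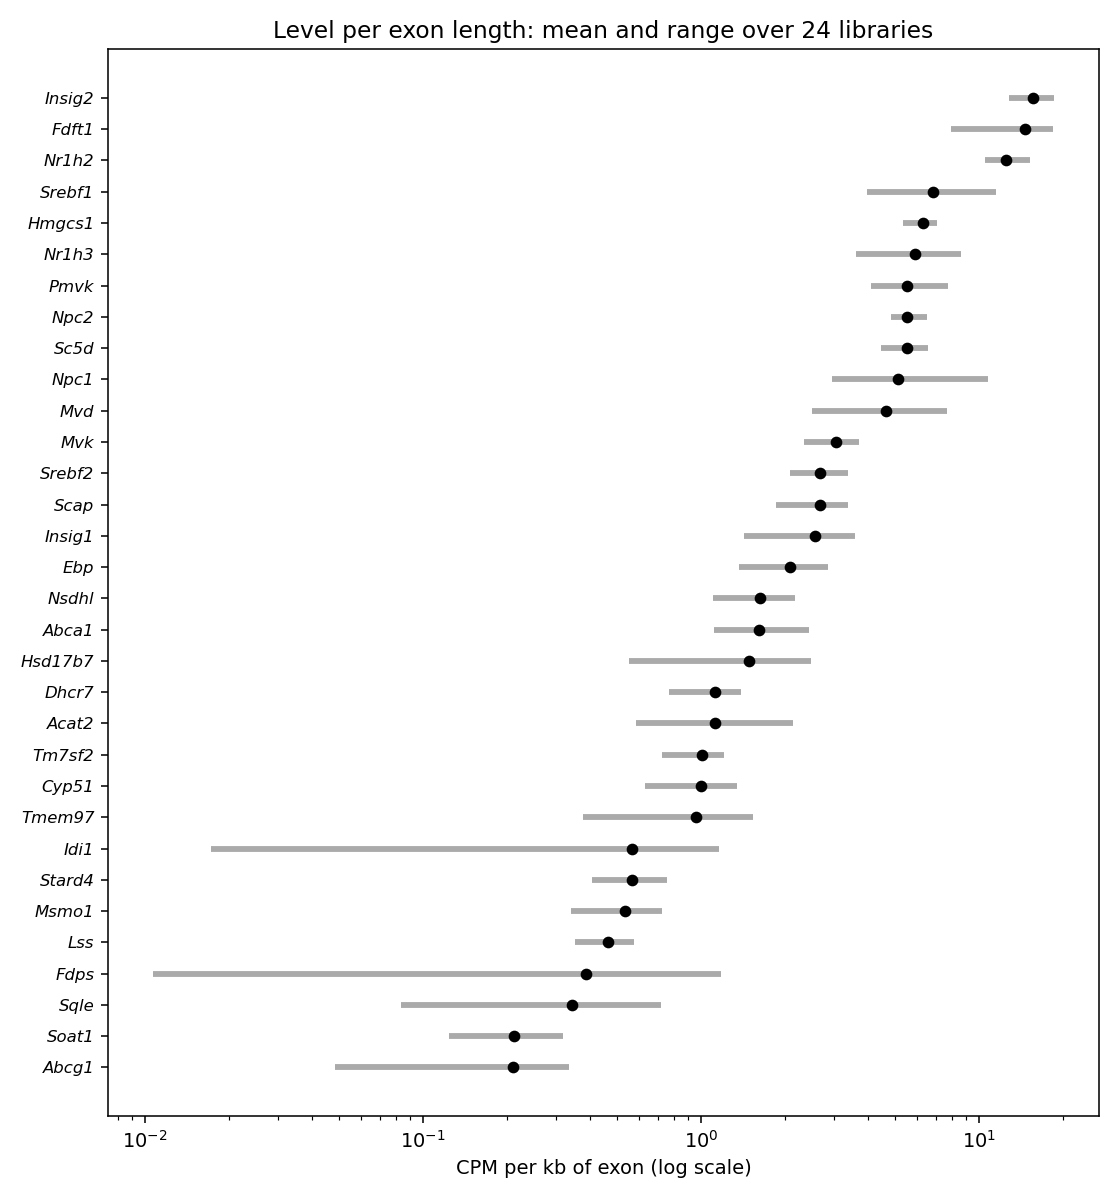
Mean level (points) and range over 24 libraries (bars) of the 32 genes, in CPM per kb of exon on a log axis. Exon length is merged over all annotated transcripts of a gene. Insig2 (15.6), Fdft1 (14.7) and Nr1h2 (12.5) stand above the rest, and Idi1 and Fdps have the widest ranges.

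The level of a few early and middle enzymes differed between the tables more than with treatment. Idi1, the isopentenyl diphosphate isomerase, ranged from 0.0607 to 0.291 CPM in transgene females, from 0.706 to 1.30 in flox females and from 2.93 to 4.07 in males. Fdps, which makes farnesyl diphosphate, lay at 0.877 to 1.58, 3.90 to 4.98 and 0.0451 to 0.638 CPM in the same 3 tables. None of these ranges overlap. The highest group mean exceeded the lowest 22.7-fold for Idi1 and 18.0-fold for Fdps. These genes share 25.3% and 26.2% of their 50-base words with other genes, such as Gm13502 for Idi1 and Gm43738 for Fdps, so reads may be split between copies. Sqle, with 0.036% of its words shared, lay at 0.463 to 1.72 CPM in females and 2.03 to 3.98 in males, a 4.29-fold span of group means, and Hsd17b7, a 3-ketosteroid reductase with no shared word, spanned 3.01-fold. Sex and table cannot be told apart in these levels, nor genotype and table in females, and they were not tested between tables. Between male genotypes after vehicle, within 1 table, Idi1 differed by -0.26 ± 0.15 on the log2 scale (transgene minus flox, adjusted p = 0.419).

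**Figure D2:**
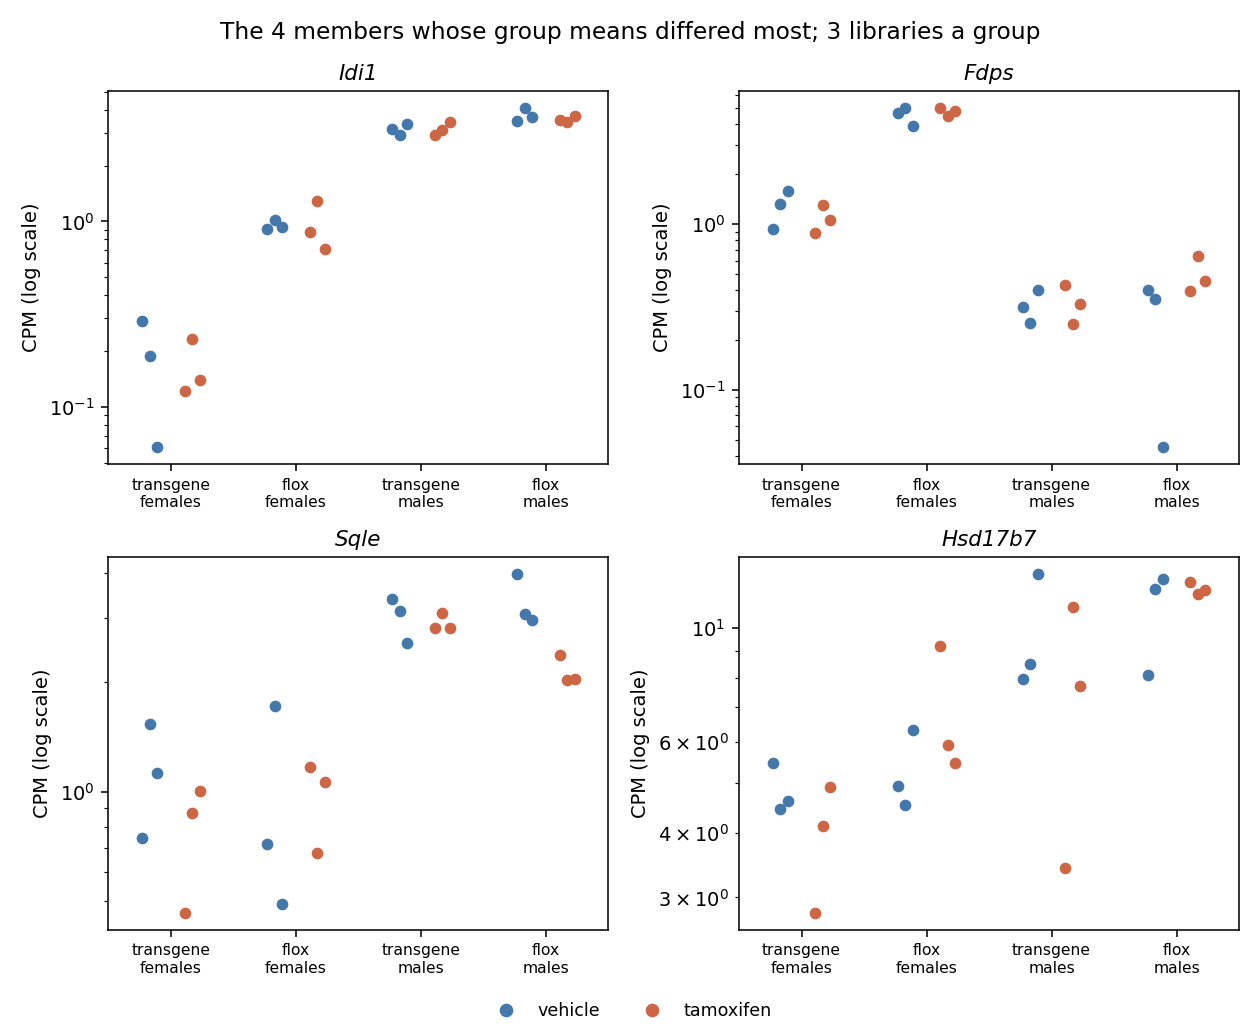
CPM (log axis) of Idi1, Fdps, Sqle and Hsd17b7 in each of 24 libraries, by sex and genotype, with vehicle in blue and tamoxifen in orange. Idi1 and Fdps separate by table, with Fdps lowest in males (0.0451 to 0.638) and Idi1 lowest in transgene females (0.0607 to 0.291).

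Over the 4 combinations of sex and genotype, tamoxifen was compared with vehicle in 1 fit of all 24 libraries with edgeR's quasi-likelihood test, which is also the source of the other adjusted p-values below (Benjamini-Hochberg over all genes tested, threshold 0.05). In all, 10 comparisons were made: tamoxifen against vehicle in each of the 4 combinations, over the 4 and over both flox combinations; the response of transgene minus flox mice in either sex; that of males minus females; and transgene against flox males after vehicle. Many share libraries and are not independent of each other. Npc1, Srebf1 and Sc5d fell, and 0 of the 32 members rose, so that 3 of 32 were called, while 8.83% of 16670 genes tested were called and 4.88% fell. At an unadjusted p under 0.05, 3 members were higher and 7 lower, against 22.3% of all genes. The members' median was -0.04 on the log2 scale (all genes 0.00), with 12 above 0 and 20 below, where 49.8% of all genes were below. Msmo1, Sqle, Nr1h2 and the 3 called genes were below 0 in each of the 4 combinations, and Pmvk, Mvd and Acat2 were above 0 in each, of 31 members tested in 4.

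**Figure D3:**
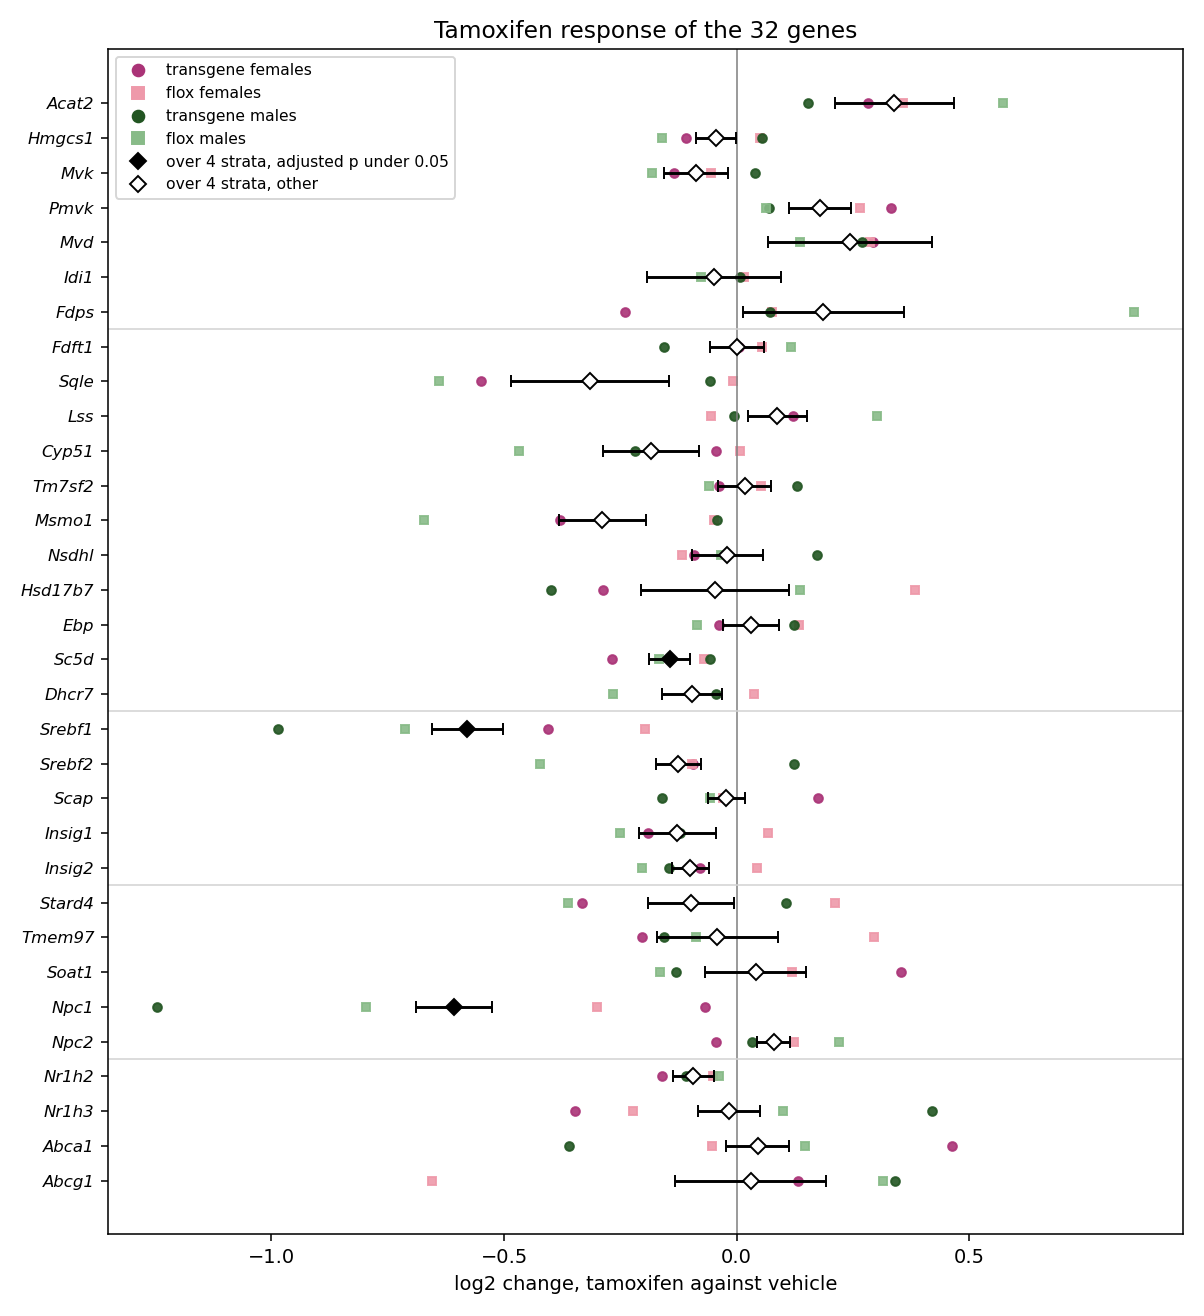
Log2 change, tamoxifen against vehicle, of each member in transgene females, flox females, transgene males and flox males (small symbols) and over the 4 together (diamonds with SE; filled where the adjusted p is under 0.05), grouped from top to bottom as early enzymes, sterol enzymes, sterol regulators, transport genes, and liver X receptors with their pumps. Npc1 (-0.61) and Srebf1 (-0.58) lie farthest to the left.

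Npc1, the lysosomal membrane protein that exports cholesterol taken up by endocytosis, was lower after tamoxifen in both groups of males. In transgene males it lay at 78.9, 79.1 and 121.7 CPM with vehicle and 33.6, 46.9 and 37.5 with tamoxifen. In flox males it lay at 81.5, 83.1 and 75.8 with vehicle and 46.4, 47.5 and 44.6 with tamoxifen. In either genotype every vehicle male lay above every tamoxifen male. On the log2 scale Npc1 fell by 1.25 ± 0.17 (SE, n = 3 against 3) in transgene males (adjusted p = 0.004) and by 0.80 ± 0.17 in flox males (adjusted p = 0.0256). In these males 2 of 32 members fell in either genotype, Npc1 and Srebf1, where 0.889% of 15628 genes were called in transgene males (0.378% lower) and 2.89% in flox males (1.54% lower). At an unadjusted p under 0.05 there were 4 and 7 members, against 10.1% and 17.5% of genes.
Female Npc1 levels were lower to start with. Transgene females had 60.6, 63.6 and 42.5 CPM with vehicle and 44.8, 54.6 and 58.4 with tamoxifen, and these overlapped, with a change of -0.07 ± 0.17 (adjusted p = 0.882). Flox females had 54.0, 50.8 and 55.1 with vehicle and 44.9, 39.8 and 45.0 with tamoxifen. The flox female groups did not overlap, with a change of -0.30 ± 0.08 that missed the threshold (adjusted p = 0.335). No member was called in either group of females by edgeR: at an unadjusted p under 0.05 there were 6 of 31 in transgene females and 1 of 32 in flox females, where 1.32% and 0.131% of all genes tested were called and 16.8% and 8.65% had such a p. DESeq2 called 2 members in transgene females, Srebf1 and Abca1, and 0 in flox females, where it called 4.89% and 0.949% of genes. Groups were apart for 5 members upward (Pmvk, Lss, Scap, Abca1 and Soat1) and 6 downward (Hmgcs1, Msmo1, Sc5d, Srebf1, Stard4 and Nr1h3) in transgene females, against 10.1% and 12.3% of genes. In flox females they were apart for 2 upward (Pmvk and Stard4) and Npc1 downward, against 6.9% and 7.33%.
The Npc1 response of males minus that of females was -0.83 ± 0.16 (adjusted p = 0.0150), the 1 member of 32 called in this test, where 0.708% of genes were, and 5 members had an unadjusted p under 0.05, against 12% of genes. This difference includes the 3 transgene male libraries whose labels disagree. In responses of males minus females, sex and table cannot be told apart. With flox mice alone, a setting added after seeing the data, the difference was -0.48 and missed the threshold (adjusted p = 0.0766). Over all 4 combinations Npc1 fell by 0.61 ± 0.08 (adjusted p = 5.77e-05), and without transgene males it fell by 0.39 (adjusted p = 0.00117). In flox mice of both sexes it fell by 0.55 ± 0.12 (adjusted p = 0.0102). The transgene response did not differ past the threshold from the flox response in males (-0.45 ± 0.23, adjusted p = 0.645) or in females (0.22 ± 0.23, adjusted p = 0.978). Npc1 (chromosome 18, 12189692 to 12236400, GRCm38) overlaps Rmc1 on the other strand over part of the 5.31% of its exon bases shared with other genes, and Rmc1 changed by 0.03 ± 0.05 over the 4 combinations (adjusted p = 0.787). In bulk muscle, fewer cells of a type and less RNA per cell cannot be told apart.

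**Figure D4:**
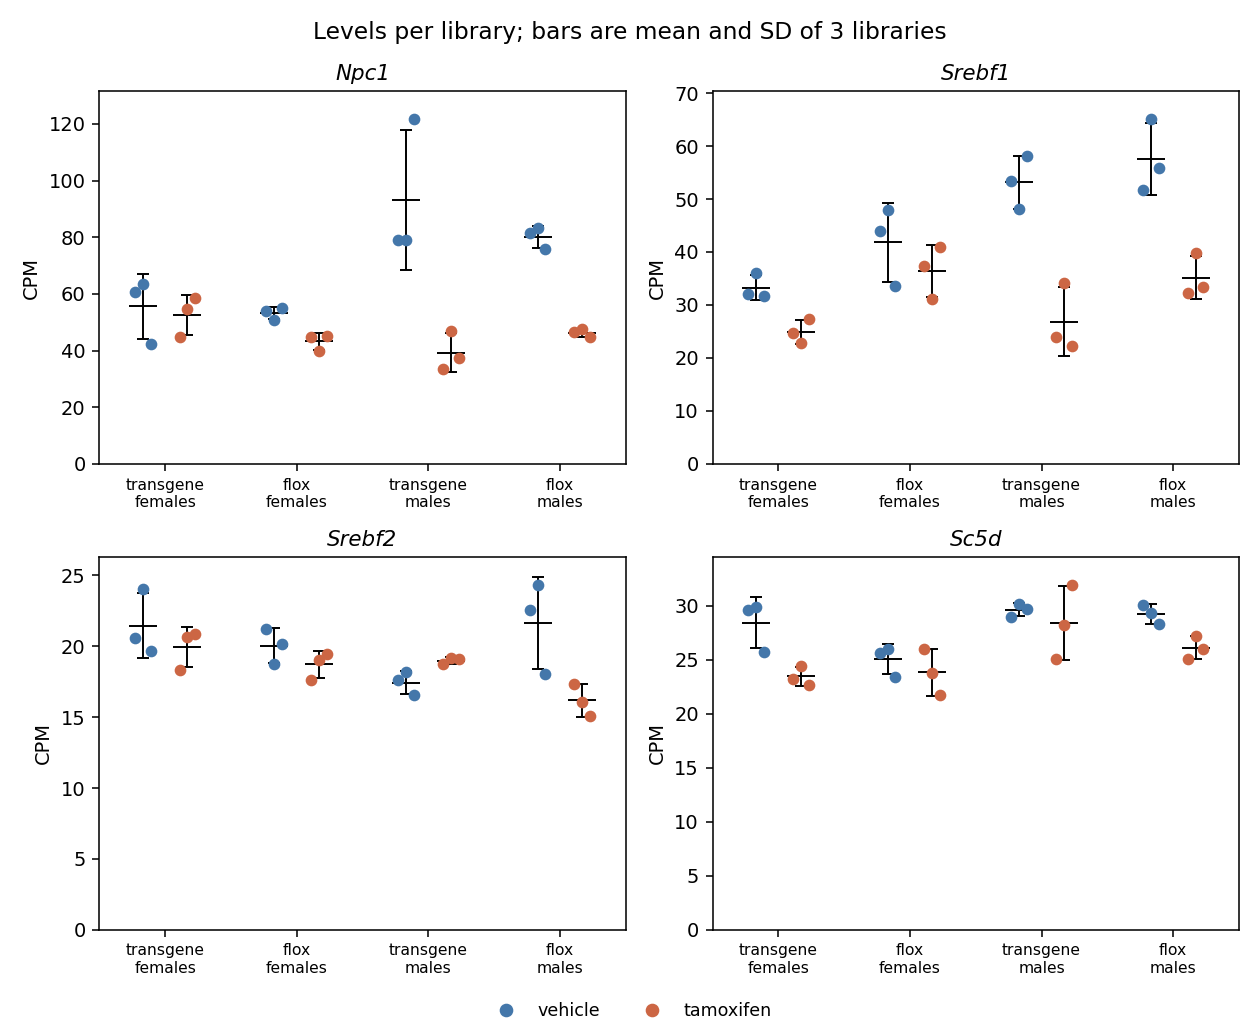
CPM of Npc1, Srebf1, Srebf2 and Sc5d in each of 24 libraries, by sex and genotype, with vehicle in blue and tamoxifen in orange; bars are the mean and SD of 3 libraries. Npc1 and Srebf1 separate by treatment in both groups of males, where vehicle Npc1 lay at 75.8 to 121.7 CPM and tamoxifen Npc1 at 33.6 to 47.5.

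Srebf1 encodes the sterol regulatory element binding protein best known for driving fatty acid synthesis, and it fell in both groups of males. Transgene males had 53.4, 48.1 and 58.1 CPM with vehicle and 23.98, 34.2 and 22.3 with tamoxifen. Flox males had 51.8, 65.1 and 55.8 with vehicle and 32.3, 39.8 and 33.3 with tamoxifen. Vehicle and tamoxifen males did not overlap in either genotype. Srebf1 fell by 0.99 ± 0.15 (adjusted p = 0.00881) and by 0.71 ± 0.15 (adjusted p = 0.0281) on the log2 scale in the 2 genotypes.
In transgene females Srebf1 lay at 32.1, 36.0 and 31.6 CPM with vehicle and 24.7, 22.8 and 27.4 with tamoxifen. These groups did not overlap either, but the change of -0.41 ± 0.09 missed the threshold (adjusted p = 0.0677; 0.0170 with DESeq2). In flox females the values were 43.9, 47.9 and 33.6 with vehicle and 37.3, 31.1 and 40.9 with tamoxifen, which overlapped. Over the 4 combinations Srebf1 fell by 0.58 ± 0.08 (adjusted p = 3.42e-05), and by 0.45 ± 0.11 in flox mice of both sexes (adjusted p = 0.0197). Males minus females differed by -0.54 ± 0.15, which missed the threshold (adjusted p = 0.111; 0.0355 with DESeq2). Srebf1 (chromosome 11, 60199089 to 60222581) overlaps Rai1 on the other strand within the 3.11% of exon bases it shares, and Rai1 changed by -0.01 ± 0.06.

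The calls in males depend on which libraries enter the fit. With the 6 transgene male libraries alone, Npc1 (-1.25) and Srebf1 (-0.99) kept their size but missed the threshold (adjusted p = 0.102 and 0.0968), and 27 of all genes were called instead of 139. In flox males the 6 libraries alone gave adjusted p = 0.000429 for Npc1 and 0.00563 for Srebf1. In the 12-library fit of flox males 0 members were called without vehicle replicate 1 or 2 or tamoxifen replicate 1 or 3, Srebf2 alone without vehicle replicate 3, the library high in Hspa1a (adjusted p = 0.0501 for Npc1 and 0.0603 for Srebf1), and Srebf1 alone without tamoxifen replicate 2. Across the 12 such fits the flox male change of Npc1 stayed between -0.83 and -0.77 and that of Srebf1 between -0.80 and -0.62. Both genes passed over the 4 combinations in each of the 24 fits that left out 1 library and in each that left out 1 combination.

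Srebf2, the family member best known for driving cholesterol synthesis, had its lowest group mean in tamoxifen-treated flox males, 16.2 ± 1.15 CPM (SD, n = 3). Flox males had 22.6, 24.3 and 18.1 CPM with vehicle and 17.4, 16.1 and 15.1 with tamoxifen. Transgene males had 17.6, 18.2 and 16.6 with vehicle and 18.7, 19.2 and 19.1 with tamoxifen. Both pairs of groups were apart, in opposite directions: -0.42 ± 0.11 in flox males (adjusted p = 0.0529; 0.0164 with DESeq2, 0.0441 with Myh7 as a covariate, 0.0137 without vehicle replicate 3) and 0.12 ± 0.11 in transgene males (adjusted p = 0.786), a difference of 0.55 ± 0.15 between the responses (adjusted p = 0.334).
Transgene females had 20.6, 24.1 and 19.7 CPM of Srebf2 with vehicle and 18.3, 20.7 and 20.9 with tamoxifen, and flox females 21.2, 18.8 and 20.2 against 17.7, 19.0 and 19.5. Both pairs overlapped. In flox mice of both sexes Srebf2 fell by 0.26 ± 0.07 (adjusted p = 0.0397), which made 3 of 32 members called there with Npc1 and Srebf1, where 3.45% of 16670 genes were called and 1.69% were lower. The Srebf2 call was lost without a filter on low counts (adjusted p = 0.0819) and held in 15 of 24 fits that left out 1 library (adjusted p up to 0.114), and that of Srebf1 held in 20 of 24 (up to 0.0576). At an unadjusted p under 0.05 there were 6 members, against 16.9% of genes. Of the other regulators, Scap (-0.02 ± 0.04), Insig1 (-0.13 ± 0.08) and Insig2 (-0.10 ± 0.04) did not pass over the 4 combinations (adjusted p = 0.828, 0.397 and 0.126).

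The early enzymes, from acetyl-CoA to farnesyl diphosphate, had no called member in any of the 10 comparisons. Over the 4 combinations 4 of the 7 were above 0 and 3 below, from -0.09 for Mvk, mevalonate kinase, to 0.34 ± 0.13 for Acat2, the cytosolic thiolase (adjusted p = 0.108). Acat2 shares 39.1% of its words with Acat3, whose rows hold 0 to 0.183 CPM. Pmvk, phosphomevalonate kinase, was highest in tamoxifen females. Transgene females had 10.3, 7.63 and 9.50 CPM with vehicle and 11.5, 11.1 and 11.7 with tamoxifen, and flox females had 10.97, 8.22 and 11.2 against 11.2, 11.99 and 13.2. Both female pairs were apart, by a small margin in flox mice, with changes of 0.33 ± 0.13 and 0.26 ± 0.13 (adjusted p = 0.236 and 0.622).
In males Pmvk overlapped between treatments, with 7.01, 7.99 and 7.92 against 7.85, 7.73 and 8.47 in transgene mice and 8.39, 8.42 and 8.29 against 7.56, 10.6 and 8.09 in flox mice. Its change over the 4 combinations was 0.18 ± 0.07 (adjusted p = 0.103). Hmgcs1, which holds the sterol element printed above, changed by -0.04 ± 0.04 (adjusted p = 0.609) and ranged from 24.4 to 32.5 CPM over all 24 libraries. Idi1 did not pass the filter on low counts in transgene females and was tested in the other comparisons, where it was not called.

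Among the 11 sterol enzymes, 4 were above 0 and 7 below over the 4 combinations, and Sc5d, the desaturase of the penultimate step, fell. Transgene females had 29.6, 29.9 and 25.7 CPM with vehicle and 23.2, 24.4 and 22.7 with tamoxifen, and flox males had 30.1, 29.3 and 28.3 against 25.1, 27.2 and 26.0. Those 2 pairs did not overlap. Flox females had 25.7, 26.0 and 23.4 against 26.0, 23.8 and 21.7, and transgene males had 29.0, 30.1 and 29.7 against 25.1, 28.3 and 31.9, and these overlapped. The fall of Sc5d over the 4 combinations was small, 0.14 ± 0.04 on the log2 scale (adjusted p = 0.0447). It missed the threshold with the other scaling factor tried (0.0606), without a filter on low counts (0.127), in 19 of 24 fits that left out 1 library and without transgene females (0.396), flox females (0.0806) or flox males (0.223).
Msmo1 and Sqle, which act on methyl sterols and on squalene, were below 0 in each combination without passing in edgeR's test. In flox females the changes were close to none, -0.049 and -0.007, and with limma-voom they were above 0 (0.005 and 0.17). In flox males Msmo1 lay at 4.37, 4.10 and 3.56 CPM with vehicle and 2.10, 2.59 and 2.86 with tamoxifen, a change of -0.67 ± 0.17 (adjusted p = 0.0531; 0.0204 with DESeq2, 0.0424 with Myh7 as a covariate), and Sqle at 3.98, 3.09 and 2.97 against 2.37, 2.03 and 2.05, a change of -0.64 ± 0.18 (adjusted p = 0.0860). Neither overlapped between treatments there. Without vehicle replicate 3 the changes were -0.75 (adjusted p = 0.0579) and -0.71 (adjusted p = 0.0960). The change of Msmo1 over the 4 combinations was -0.29 ± 0.09 (adjusted p = 0.0569; 0.0410 with DESeq2). In transgene males the changes were -0.04 ± 0.17 and -0.06 ± 0.18. In transgene females Msmo1 was also apart, at 3.72, 3.51 and 3.70 CPM against 2.29, 3.10 and 2.96 (-0.38 ± 0.17, adjusted p = 0.304). The difference between the male genotypes was not past the threshold for Msmo1 (0.63 ± 0.24, adjusted p = 0.511) or Sqle (0.58 ± 0.26, adjusted p = 0.591). In flox males 11 of 32 members had every tamoxifen library below every vehicle library (Hmgcs1, Mvk, Sqle, Cyp51, Msmo1, Sc5d, Dhcr7, Srebf1, Srebf2, Insig2 and Npc1), against 14.7% of all genes, and 3 had every one above (Lss, Abcg1 and Npc2), against 13.3%. Without vehicle replicate 3 these counts were 14 and 5, against 23.5% and 20% of genes. In transgene males these counts were 3 lower (Srebf1, Abca1 and Npc1) and 2 higher (Tm7sf2 and Srebf2), against 7.11% and 6.69%. Tested between genotypes, 0 of 32 members had a called difference in response in males (0.0128% of genes did) or in females (0.006%), with 4 and 2 at an unadjusted p under 0.05 (8.25% and 5.92% of genes), and DESeq2 called 0 as well (0.525% and 0.0118% of genes).

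Ebp and Dhcr7, the enzymes that tamoxifen binds, did not change past the threshold in any of the 10 comparisons. Ebp, which shifts a sterol double bond, lay at 5.24, 5.72 and 5.83 CPM in vehicle and 5.73, 5.48 and 5.03 in tamoxifen transgene females, and at 5.31, 6.05 and 5.39 against 5.68, 6.61 and 6.05 in flox females. In males it lay lower, at 4.21, 3.33 and 3.16 against 4.10, 3.78 and 3.78 with the transgene and 4.17, 4.28 and 4.51 against 3.995, 3.83 and 4.39 without it. Treatments overlapped in each of the 4 pairs, and the change over them was 0.03 ± 0.06 (adjusted p = 0.855).
Dhcr7, the reductase of the last step, lay at 6.72, 7.85 and 8.13 CPM against 6.58, 7.97 and 6.53 in transgene females and at 7.04, 7.01 and 7.10 against 7.73, 7.59 and 6.35 in flox females. In transgene males it lay at 6.21, 5.97 and 7.003 against 6.49, 5.40 and 6.67, and in flox males at 6.68, 5.58 and 5.32 against 4.47, 4.96 and 5.20. The flox male groups were apart, with a change of -0.27 ± 0.14 (adjusted p = 0.360), and the other 3 pairs overlapped. Its change over the 4 combinations was -0.10 ± 0.06 (adjusted p = 0.418).

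Of the other transport genes, Npc2 encodes the soluble partner that hands cholesterol to Npc1 in the lysosome. In flox mice of both sexes Npc2 was 0.17 ± 0.05 higher, just short of the threshold by edgeR (adjusted p = 0.0545). The adjusted p was 0.0143 with DESeq2 and 0.308 without a filter on low counts. Npc2 changed by 0.08 ± 0.04 over the 4 combinations (adjusted p = 0.179). Stard4, which carries sterol through the cytosol, Tmem97, which binds Npc1, and Soat1 changed by -0.10 ± 0.09, -0.04 ± 0.13 and 0.04 ± 0.11 (adjusted p = 0.596, 0.923 and 0.903).
The liver X receptor genes and their pumps had no called member. Abca1 in transgene females lay at 16.6, 14.6 and 13.2 CPM with vehicle and 21.8, 17.6 and 21.3 with tamoxifen, and in transgene males at 15.5, 16.4 and 21.0 against 14.9, 14.6 and 11.6. The 2 pairs were apart in opposite directions, with changes of 0.46 ± 0.12 (adjusted p = 0.0962; 0.0361 with DESeq2) and -0.36 ± 0.15 (adjusted p = 0.439). In flox mice Abca1 overlapped, at 12.4, 13.1 and 12.1 against 12.01, 11.5 and 12.7 in females and 18.3, 22.1 and 20.7 against 23.7, 18.5 and 25.4 in males.
Nr1h3 was lower with tamoxifen in transgene females, at 12.6, 13.1 and 15.7 CPM against 18.7, 18.1 and 16.3 with vehicle, without passing (-0.35 ± 0.11, adjusted p = 0.156). In transgene males it lay at 9.08, 11.9 and 9.76 with vehicle and 16.6, 10.4 and 14.1 with tamoxifen. Flox females had 21.0, 16.9 and 21.6 against 18.4, 16.4 and 16.1, and flox males 12.8, 12.6 and 11.8 against 12.7, 14.4 and 12.9. The last 3 pairs overlapped. Males minus females gave 0.55 ± 0.13 for Nr1h3 (adjusted p = 0.0557; 0.0118 with DESeq2), and 0.33 in flox mice alone (adjusted p = 0.368). Nr1h2 and Abcg1 changed by -0.09 ± 0.04 and 0.03 ± 0.16 over the 4 combinations.

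Transgene and flox males grouped as vehicle were compared to see the members before induction. The 3 transgene libraries are those whose labels disagree, so that they precede induction rests on their titles. By edgeR 0 of 32 members were called, where 0.947% of genes were, 2 had an unadjusted p under 0.05 (Srebf2, -0.32 ± 0.11, and Abcg1, -0.61 ± 0.25) against 17.2% of genes, and DESeq2 called 0 (3.83% of genes). Without flox replicate 3, Srebf2 was -0.43 (adjusted p = 0.0609). The members' median was -0.13 against -0.02 for all genes. Insig2 had its groups apart upward and Pmvk, Idi1 and Abcg1 downward, against 11.5% and 11.4% of genes, and without flox replicate 3 these counts were 2 and 8, against 18% and 21.2%.

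Genes around the pathway were read from further lists. Of the 14 tested genes of sterol transport and ester handling, 3 rose over the 4 combinations, where 3.95% of all genes rose. Stard3, which binds cholesterol at late endosomes, rose by 0.34 ± 0.06 (adjusted p = 0.00123), Osbp by 0.16 ± 0.04 (adjusted p = 0.0169) and Osbpl9 by 0.13 ± 0.04 (adjusted p = 0.0253). Stard3 in flox males was 13.0 to 14.3 CPM with vehicle and 17.6 to 18.3 with tamoxifen, and in transgene males 14.6 to 15.8 against 10.96 to 17.4. Of 11 isoprenoid and acetyl-CoA genes, Nus1, a subunit of the dolichol-making prenyltransferase, fell by 0.25 ± 0.05 (adjusted p = 0.00121). Of 4 further liver X receptor targets, Lpcat3, a phospholipid acyltransferase, fell by 0.20 ± 0.05 (adjusted p = 0.0222), where 4.88% of all genes fell. None of 15 lipogenic genes, 8 genes of SREBP processing, 5 oxysterol and side-branch enzymes or 4 sigma receptor and related genes was called over the 4 combinations by edgeR, with 6, 2, 0 and 1 at an unadjusted p under 0.05, where 22.3% of all genes had one. In flox males 1 of the lipogenic genes, the desaturase Scd2, fell by 0.76 ± 0.16 (adjusted p = 0.0278, and 0.0453 without vehicle replicate 3), and in transgene males 0 of the 15 did. A link between Srebf1 and these genes was not tested. Median changes of the lipogenic genes were 0.13 over the 4 combinations, 0.13 in transgene males and 0.20 in flox males.

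Clock genes, whose levels cycle with the time of day, moved with tamoxifen too. Of 14 such genes 7 rose and 3 fell over the 4 combinations, where 3.95% of all genes rose and 4.88% fell, among them Per3 by 0.80 ± 0.10 (adjusted p = 3.31e-05) and Arntl, which fell by 1.31 ± 0.17 (adjusted p = 9.47e-05). In flox males Arntl lay at 7.93 to 24.6 CPM with vehicle (17.4 to 24.6 without replicate 3) and 2.93 to 5.46 with tamoxifen. In transgene males 0 of the 14 were called and 0 had an unadjusted p under 0.05, against 0.889% and 10.1% of all genes. The part of sampling hour in the members' changes was not tested.
Markers of other cell types were read beside the members over the 4 combinations. Cd68, 1 of 8 macrophage markers, fell by 0.64 ± 0.20 (adjusted p = 0.0447), and Kdr, 1 of 5 endothelial markers, by 0.48 ± 0.15 (adjusted p = 0.0478). Summed macrophage markers lay at 60.8 to 92.2 CPM in vehicle and 54.2 to 62.3 in tamoxifen flox males, and at 36.5 to 87.9 against 44.1 to 77.9 in transgene males. Summed endothelial markers lay at 158.6 to 263.0 against 143.7 to 192.5 and at 188.0 to 226.7 against 159.5 to 221.2 in the same groups. Myelin-forming Schwann cells make much cholesterol, and their 8 markers summed to 103.0 to 131.2 against 65.6 to 169.3 in flox males and 59.4 to 158.4 against 58.1 to 128.6 in transgene males, with 0 of 8 called. Over the 4 combinations 7 of 7 adipocyte markers were above 0, where 50.2% of all genes were, with a median of 0.41. Their median was 0.99 in transgene males and 0.07 in flox males. Their sums lay at 98.9 to 142.75 CPM against 115.5 to 154.1 in transgene males. In flox males the adipocyte sums lay at 134.8 to 216.8 against 128.0 to 302.1. No marker of muscle fibres, slow fibres, adipocytes, fibroblasts, smooth muscle, satellite cells, blood or T and B cells was called over the 4 combinations, and no marker of any list in either group of males. Without flox vehicle male 3, Kdr fell by 1.16 ± 0.24 in flox males (adjusted p = 0.0405). The macrophage, endothelial, Schwann and adipocyte sums overlap between treatments. Without flox vehicle male 3 the vehicle sums of flox males were 68.6 to 92.2 for macrophages and 258.7 to 263.0 for endothelium, both above those with tamoxifen. Some other sums did not overlap. In transgene males the 6 fibroblast markers summed to 328.7 to 474.4 CPM with vehicle and 490.1 to 514.1 with tamoxifen. In flox males the 3 satellite cell markers summed to 8.82 to 9.83 against 10.4 to 11.7, and the 5 T and B cell markers, each at 0 in some of the 24 libraries, to 1.80 to 3.26 against 0.826 to 1.27. Fibroblast sums of flox males overlapped with all 3 vehicle libraries (300.4 to 479.3 against 304.8 to 407.0) and not without replicate 3 (457.4 to 479.3). The same held for the fibre sums of flox males, which were higher with tamoxifen. Without replicate 3 the slow fibre markers summed to 1493 to 1604.1 CPM with vehicle, against 1828.9 to 2311.5 with tamoxifen. The muscle fibre markers summed to 121480 to 128230 against 131400 to 145510. The part of cell composition in the members' changes was not tested.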

How the data were processed

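Total RNA from frozen gastrocnemius was sequenced in 24 libraries. The deposited tables hold raw counts per gene ID; the submitters' processing notes name STAR, featureCounts, limma, GRCm38 and mm10 without versions. The labels give neither strand setting nor library kit. Totals ran from 21516819 to 43014516 counts a library, and all columns were mapped to samples by title or description. Flox males were grouped by the genotype field, since their titles say WT. Replicates differed beyond sampling noise in each of 24 pairs (chi-square per degree of freedom 9.22 to 117).

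Counts were tested with edgeR 4.0.16 (R 4.3.3): filterByExpr with a minimum count of 10 and total of 15, TMM, robust quasi-likelihood fits, Benjamini-Hochberg adjustment over all genes, threshold 0.05. Standard errors are the log2 change over the root of F. The fit held 6 libraries in females, 12 in males, and 24 for comparisons across sex or for the transgene minus flox response in females. DESeq2 1.42.0, limma-voom (limma 3.58.1), RLE scaling, no filter, Myh7 as covariate, other sets of libraries and leaving out each library were alternatives. The tests were checked on simulated data. The transgene minus flox test recovered 34% of 2-fold and 2% of 1.5-fold changes in males, and 46% and 7% in females. Tamoxifen against vehicle recovered 45% and 22% in flox males, 53% and 25% in transgene males, and 89% and 72% over the 4 combinations. A member that was not called may thus have changed. The members and the further gene lists were chosen with earlier results of these data known. Values in every library are given for members called in a comparison, for the 3 with the smallest p over the 4 combinations and in each of them, and for Ebp and Dhcr7; Msmo1 and Sqle were added after their values were seen. Of the further lists, called genes are counted and up to 4 named. Exon lengths are those of the merged exons of all transcripts of a gene in GENCODE M21 (GRCm38).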

Additional observations from a re-analysis of the deposited data

Results flagged for a closer look

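The tamoxifen response of Npc1 differed between the sexes: males minus females gave -0.83 on the log2 scale (adjusted p = 0.0150, edgeR, 24 libraries), with the change larger in males of both genotypes (-1.25 and -0.80) than in females (-0.07 and -0.30). It was past the threshold in each of 24 fits that left out 1 library, with values from -0.91 to -0.71. In flox mice alone, a setting added after seeing the data, it was -0.48 (adjusted p = 0.0766). Vehicle levels differed as well, at 75.8 to 121.7 CPM in males and 42.5 to 63.6 in females. Sex and table cannot be told apart in the levels or in the responses.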

How the results depend on the processing

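With DESeq2 the members called became 2 in transgene females (Srebf1 and Abca1), 4 in flox males and 3 for males minus females (Srebf1, Nr1h3 and Npc1), against 0, 2 and 1. DESeq2 also called Msmo1 over the 4 combinations (adjusted p = 0.0410) and Npc2 in flox mice of both sexes (adjusted p = 0.0143). Without a filter on low counts the members called became 2 in transgene females and 2 for males minus females (Nr1h3 and Npc1). With Myh7 as a covariate 4 were called in flox males, as with DESeq2 (Msmo1, Srebf1, Srebf2 and Npc1). With only the 6 transgene male libraries, 0 were called in transgene males, and with flox mice alone, a setting added after seeing the data, 0 for males minus females. The cause of these differences was not tested; fewer libraries give a less certain spread.

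Leaving out each library in turn gave 0 to 4 members in flox males, 2 to 4 over the 4 combinations, 1 to 4 in flox mice of both sexes and 1 to 3 for males minus females. Transgene males stayed at 2 and the other 5 comparisons at 0 in those fits. In flox mice of both sexes 1 member, Npc1, was called without female vehicle replicate 1, male vehicle replicate 2 or male tamoxifen replicate 3. No member's called change reversed sign. The members' median moved by less than the spread between libraries (SD 0.0367) in 201 of 209 alternatives; in flox males it was -0.13 without vehicle replicate 3.

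Same-numbered flox female libraries did not deviate together (r of -0.17, -0.01 and -0.11), and a fit with the replicate number as a block called 0 members and 15 genes, against 0 and 19.

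Counts over all genes moved more. In transgene females 187 genes were called, against 681 with DESeq2, 941 without a filter and 360 with all libraries in 1 fit, and in flox females 19, against 143, 329, 4 and, with limma-voom, 10. Transgene males had 139, against 317 with DESeq2, 221 without a filter, 209 with Myh7 and 27 from 6 libraries. Flox males had 452, against 866 with DESeq2, 778 with Myh7 and 917 from 6 libraries. After vehicle 148 differed between male genotypes, against 594 with DESeq2 and 327 without a filter. The responses of male genotypes differed for 2 genes, against 75, 38 and, with limma-voom, 0, and those of female genotypes for 1, against 4 and 2. DESeq2 gave 874 against 575 in flox mice of both sexes and 314 against 118 for males minus females, where flox mice alone gave 43. Over the 4 combinations 1472 were called, 806 without transgene females and 516 without flox males. Idi1 had 2 to 9 counts in transgene females, where its level was lowest, so its change there was not tested.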
